A study of Mus musculus with 6 samples.

Results

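The genes described here are the matrix metalloproteases (Mmp), the related ADAMTS proteases (Adamts), the ADAMTS-like proteins (Adamtsl) and the tissue inhibitors of metalloproteases (Timp). They were chosen as every symbol of the file made of Mmp, Adamts, Adamtsl or Timp followed only by digits, with at least 20 UMIs over all barcodes. A UMI, or unique molecular identifier, tags 1 captured RNA molecule. Of 49 such symbols, 37 reached this number: 4 Timp, 14 Mmp, 14 Adamts and 5 Adamtsl genes. Just inside the limit lay Adamts3 and Adamts17 with 40 UMIs each, and just outside it Adamts20 with 17 and Adamts14 with 15. Mmp7, Mmp10, Mmp20, Mmp21 and Mmp24 had 0 UMIs.

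Hearts of C57BL/6 mice aged 3 to 6 months were taken apart with collagenase II by Langendorff perfusion, the non-myocytes were sorted for EGFP, and 10x Genomics droplet libraries of them were sequenced on a NovaSeq. All mice carried Wt1CreERT2, a tamoxifen-dependent Cre under the promoter of the epicardial factor Wt1, and the Rosa26mTmG reporter, which switches a cell and its progeny to membrane EGFP once Cre has been active. The control group had 3 libraries with these alleles alone, and the Dsp_het group had 3 libraries that also carried the conditional allele DspW/F of desmoplakin, a desmosome protein. The labels do not say whether each library was 1 animal, so p-values measure only the spread between libraries, which may be technical.

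Matrix metalloproteases are zinc enzymes that are made as inactive precursors and cut collagens, basement membrane proteins and other matrix proteins outside the cell. ADAMTS proteases process procollagen and cleave proteoglycans such as versican and aggrecan, and ADAMTS-like proteins share their binding modules but have no protease domain. The TIMPs bind and block the active sites of these enzymes, and in the heart the balance between enzymes and inhibitors is known to shape how the matrix between myocytes is renewed.

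Library totals ranged from 7573157 to 17083660 UMIs. Libraries shared barcodes: of 13183 different barcodes, 1689 were seen in more than 1 library, and 530 were seen in each of the 6. The lower-count occurrences of a shared barcode made up from 17.3% (Dsp_het library 1) to 48.9% (Dsp_het library 3) of a library's barcodes and were left out, and 12624 cells were kept. The labels call the cells epicardial derived, but the endothelial-like class held 9728 of them (77.1%), the fibroblast-like class 1204, the epicardial-like class 591, the macrophage-like class 218 and the pericyte-like class 206. Pecam1, an endothelial junction protein, stood at 713 CPM (the UMIs of a gene scaled to the same total of UMIs in each library and class) in endothelial-like and 15.9 CPM in fibroblast-like cells, Dcn (decorin) at 22690 CPM in fibroblast-like cells, and Upk3b, a mesothelial marker, at 2120 CPM in epicardial-like cells. Pericyte-like cells also held Pecam1, Cdh5 and Fabp4 at 53.7% to 63.0% of the endothelial-like level, so their values for endothelial genes are given beside that. Dsp had only 4 to 18 UMIs per library in epicardial-like cells, at 12.3, 20.6 and 17.5 CPM in control and 7.44, 7.39 and 9.70 CPM in Dsp_het libraries. Over all kept cells Dsp overlapped, at 1.27, 2.20 and 2.10 CPM in control and 1.21, 1.26 and 3.57 CPM in Dsp_het libraries. Where the deleted part lies relative to the counted RNA ends is not given in the sources used here.

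Of these genes, 3 on chromosome 9 have promoters that share 2 short motifs, and these are shown first. They were picked for holding both motifs. Mmp13 lies at chr9:7272514-7283331, Mmp12 at chr9:7344381-7369499 and Mmp3 at chr9:7445822-7455975 on the plus strand (GENCODE M21, GRCm38). The sequences are RefSeq promoters of build GRCm38.p6, plus strand, from 250 bases before to 50 bases after the annotated start, 5′ to 3′. Capitals mark TGANTCA, the palindromic motif that AP-1 factors are known to bind, and TATAAA, both searched on both strands. Mmp12 has 2 annotated starts, and only the window with matches is printed. Mmp12 overlaps Mmp1b on the other strand. Mmp27 lies in the same stretch, at chr9:7571396-7581885 on the plus strand, and its window held 0 matches to either motif.
Mmp3, chr9:7445572-7445871: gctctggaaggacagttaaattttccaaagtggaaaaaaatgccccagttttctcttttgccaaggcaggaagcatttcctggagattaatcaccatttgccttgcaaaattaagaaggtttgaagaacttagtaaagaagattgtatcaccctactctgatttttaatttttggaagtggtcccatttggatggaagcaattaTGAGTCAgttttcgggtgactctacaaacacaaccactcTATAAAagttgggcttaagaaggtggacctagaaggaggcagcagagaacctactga
Mmp12, chr9:7347124-7347423: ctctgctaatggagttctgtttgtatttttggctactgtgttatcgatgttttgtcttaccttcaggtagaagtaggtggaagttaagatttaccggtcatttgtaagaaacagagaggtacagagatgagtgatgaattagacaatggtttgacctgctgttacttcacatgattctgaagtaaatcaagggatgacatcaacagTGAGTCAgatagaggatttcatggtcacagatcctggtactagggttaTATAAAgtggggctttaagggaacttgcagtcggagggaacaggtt
Mmp13, chr9:7272264-7272563: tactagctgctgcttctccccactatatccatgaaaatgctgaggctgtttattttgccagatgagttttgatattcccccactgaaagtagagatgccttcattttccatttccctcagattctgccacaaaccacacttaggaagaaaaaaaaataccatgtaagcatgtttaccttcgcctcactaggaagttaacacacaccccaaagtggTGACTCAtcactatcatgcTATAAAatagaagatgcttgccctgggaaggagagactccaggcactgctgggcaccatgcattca
Among all 32851 promoters of the table, 7.81% held TGANTCA and 13.6% held TATAAA. The table matched 23 of the 37 genes, of which 3 had TGANTCA, 5 had TATAAA and 16 had GGGCGG, the motif known as the GC box, which 35.7% of all promoters held. None of these 3 promoter windows held GGGCGG. The counts of matched genes are per gene over any of its windows (25 promoters for the 23 genes), and the shares are per promoter. Relative to the annotated start, TATAAA began at -7 in Mmp3, 4 in Mmp12 and -16 in Mmp13, so its position was not shared. The other genes with TATAAA were Adamts1, at -32, and Adamtsl2, at -30. A match describes letters in a window and is no binding site. Mmp3 and Mmp27 had their highest mean in fibroblast-like cells, and Mmp12 and Mmp13 theirs in macrophage-like cells.

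Levels across classes are mean CPM of the summed cells of each library, over libraries with at least 20 cells of the class (6 for endothelial-like, fibroblast-like and epicardial-like, 5 for macrophage-like, 3 for pericyte-like cells). They describe the cells and carry no test, and they are compared within a gene, since UMI counts are not scaled by gene length. Of the 37 genes, 22 had their highest mean in fibroblast-like cells, 6 in endothelial-like, 4 in epicardial-like, 3 in macrophage-like and 2 in pericyte-like cells. In 10 of the 22, 2 of the 6, 2 of the 4 and 2 of the 3, no library of any other class reached the lowest library of that class, and in the pericyte-like class this held for 0 of 2. The same counts were not made over all genes, so they cannot be read as a trait of these families. Some of the 22 were low, such as Adamts3 at 2.75, Adamts6 at 2.53 and Adamts8 at 1.57 CPM in fibroblast-like cells.

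**Figure D1:**
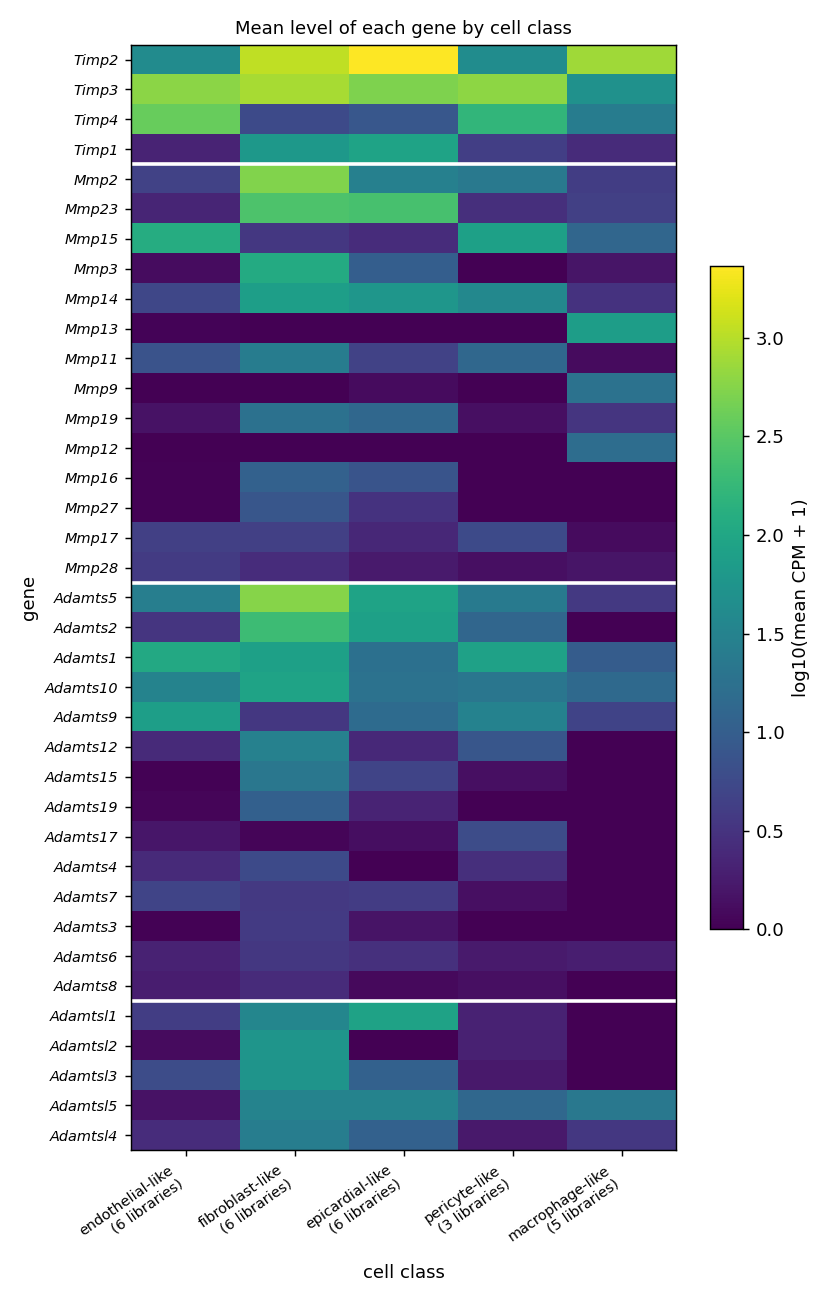
Mean level of each of the 37 genes (rows, grouped as Timp, Mmp, Adamts and Adamtsl) in 5 cell classes (columns), as log10 of mean CPM plus 1. Timp2 is brightest in epicardial-like cells at 2322 CPM, Mmp2 and Adamts5 in fibroblast-like cells, and Mmp13, Mmp9 and Mmp12 are near 0 outside macrophage-like cells.

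Each of the 4 inhibitors had its own distribution over the classes. Timp2, which blocks metalloproteases and also takes part in activating the Mmp2 precursor, was at 2322 ± 176 CPM (SD, n = 6) in epicardial-like, 1107 ± 165 in fibroblast-like, 766 ± 87.4 (n = 5) in macrophage-like and 41.3 ± 12.04 (n = 6) in endothelial-like cells. Its 6 epicardial-like libraries, from 2006 to 2489 CPM, all lay above the highest fibroblast-like library at 1361. In the macrophage-like cells, Upk3b was at 2.12 and Dcn at 68.5 CPM. Timp2 lies at chr11:118301069-118355740 on the minus strand and overlaps Cep295nl on the same strand.

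Timp3, which binds to the matrix and also blocks ADAMTS enzymes, was the most even of the 4. It stood at 833 ± 247 CPM in fibroblast-like, 621 ± 148 (n = 3) in pericyte-like, 612 ± 122 in endothelial-like and 524 ± 97.0 in epicardial-like cells, and the libraries of these classes overlapped. Within a library, fibroblast-like cells had more Timp3 than endothelial-like and than epicardial-like cells in 6 of 6 libraries each. Macrophage-like cells had 49.7 ± 43.8 CPM of Timp3, in a class where Pecam1, Cdh5 and Fabp4 stood at 6.23% to 6.81% of their endothelial-like level.

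Timp4, an inhibitor known from the heart, was at 379 ± 118 CPM in endothelial-like cells, with libraries at 310, 282 and 436 in control and 260, 568 and 422 in Dsp_het. It was at 4.75 ± 4.32 CPM in fibroblast-like and 7.15 ± 12.8 in epicardial-like cells, and every endothelial-like library lay above every library of the other 4 classes. In pericyte-like cells Timp4 was at 163 ± 78.4 CPM (n = 3). The single library with at least 20 cardiomyocyte-like cells, control library 3, had 518 CPM of Timp4 in them.

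Timp1, the inhibitor known to rise with injury and inflammation, was at 89.0 ± 22.3 CPM in epicardial-like and 61.4 ± 19.96 in fibroblast-like cells, and epicardial-like cells were higher in 5 of 6 libraries. In endothelial-like cells it was at 1.13 CPM.

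Of the inhibitor genes, 3 lie inside or across a synapsin gene on the other strand: Timp1 (chrX:20870166-20874735) overlaps Syn1, Timp3 (chr10:86300372-86349506) overlaps Syn3 and Timp4 (chr6:115241892-115252205) overlaps Syn2. Over kept cells Syn1, Syn2 and Syn3 had 16, 539 and 1078 UMIs, beside 1245 for Timp1, 16803 for Timp4 and 36993 for Timp3. Whether counting used strand is not given in the sources used here, so reads of such partners may not be told apart.

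Among the metalloproteases, Mmp2 (gelatinase A, which cuts denatured collagen and basement membrane collagen) had a fibroblast-like mean 16.2 times that of the next class (5 CPM added to both). Its libraries were at 596, 531 and 488 CPM in control and 427, 574 and 626 in Dsp_het fibroblast-like cells, against 28.6 ± 11.8 CPM in epicardial-like cells. Mmp23, a membrane-anchored protease, was at 262 ± 32.3 CPM in fibroblast-like and 240 ± 47.1 in epicardial-like cells, a difference within the spread of the libraries. Mmp14, the membrane-type enzyme that activates the Mmp2 precursor, was likewise at 75.2 ± 9.83 CPM in fibroblast-like and 56.9 ± 15.6 in epicardial-like cells, with overlapping libraries. For both Mmp23 and Mmp14, fibroblast-like cells were higher than epicardial-like cells of the same library in 5 of 6 libraries. Compared with fibroblast-like cells, epicardial-like cells thus had more Timp2, less Mmp2 and, in 5 of 6 libraries, less Mmp14.

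Mmp15, another membrane-type enzyme, was at 122 ± 17.3 CPM in endothelial-like cells and 81.0 ± 19.6 in pericyte-like cells (n = 3), and between 99.2 and 142 CPM in every endothelial-like library. Mmp3 (stromelysin, which cuts proteoglycans and activates other metalloproteases) was at 113 ± 99.4 CPM in fibroblast-like cells, a spread nearly as large as the mean, and at 9.16 ± 18.6 in epicardial-like cells. A single epicardial-like cell of control library 2 held 16 of the 28 epicardial-like Mmp3 UMIs. Mmp11 at 24.7 ± 9.81 CPM, Mmp19 at 17.1 ± 3.65, Mmp16 at 10.1 ± 2.61 and Mmp27 at 7.05 ± 5.06 were the lower metalloproteases with a highest mean in fibroblast-like cells.

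Of the macrophage-like cells, 47 of 218 (21.6%, 95% exact interval 16.3% to 27.6%) held a UMI of Mmp13, a collagenase. Its level was 81.8, 41.1 and 42.5 CPM in the control libraries and 133 and 70.6 CPM in Dsp_het libraries 2 and 3. Mmp9 (gelatinase B) was found in 16 cells (7.34%, 4.25% to 11.7%) and Mmp12 (macrophage elastase) in 9 (4.13%, 1.91% to 7.69%). In endothelial-like cells Mmp13 was found in 3 of 9728 cells, and Mmp9 and Mmp12 in 0 of 9728. For Mmp9 and Mmp12 the 95% exact interval reaches 0.0379% of cells with a UMI, and it sets no limit on cells that express the gene. The median depth was 10693 UMIs in macrophage-like and 3784.5 in endothelial-like cells. Few cells carried these RNAs: 1 cell of control library 3 held all 16 Mmp12 UMIs of its library, and 1 cell of Dsp_het library 3 held 14 of 22 Mmp9 UMIs. The intervals cover counting error only.

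The ADAMTS genes divided between fibroblast-like and endothelial-like cells. Adamts5, a protease of aggrecan and versican, was at 562, 622 and 422 CPM in control and 541, 618 and 589 CPM in Dsp_het fibroblast-like cells, against 87.6 ± 14.6 CPM in epicardial-like and 26.9 ± 6.86 in endothelial-like cells. Adamts2, which removes the amino-terminal propeptide of fibrillar procollagens, was at 201 ± 25.9 CPM in fibroblast-like and 80.5 ± 18.5 in epicardial-like cells. Adamts10, which binds fibrillin, was at 89.1 ± 14.005 CPM in fibroblast-like and 31.3 ± 3.83 in endothelial-like cells. For all 3 of these genes, no fibroblast-like library overlapped a library of another class. Adamts12 at 28.8 ± 4.91 CPM, Adamts15 at 20.5 ± 9.38 and Adamts19 at 9.91 ± 3.17 also had their highest mean in fibroblast-like cells.

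Adamts9, a protease of versican, was at 75.2 ± 11.9 CPM in endothelial-like cells, where its libraries lay between 59.9 and 89.1, and at 29.7 ± 14.4 in pericyte-like cells. Adamts1, another protease of versican, was less divided: it was at 106 ± 16.0 CPM in endothelial-like, 83.1 ± 32.0 in pericyte-like and 82.1 ± 27.6 in fibroblast-like cells, with overlap, and at 16.3 ± 8.71 in epicardial-like cells. Within a library, Adamts1 was higher in endothelial-like than in fibroblast-like cells in 6 of 6 libraries. Adamts1 (chr16:85793827-85803113) and Adamts5 (chr16:85856173-85901828) lie near each other on the minus strand of chromosome 16. Adamts5 was separated between fibroblast-like cells and every other class, and Adamts1 was not.

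The ADAMTS-like proteins were low in endothelial-like cells as a class and divided between the other 2 large classes. Adamtsl2 and Adamtsl4, which bind fibrillin, were at 56.4 ± 25.3 and 25.5 ± 10.5 CPM in fibroblast-like cells, and Adamtsl3 at 54.6 ± 22.8. For Adamtsl1 the order was the reverse, with 87.1 ± 22.5 CPM in epicardial-like and 34.2 ± 12.4 in fibroblast-like cells and no overlap with any class. Adamtsl5 was at 30.8 ± 8.71 CPM in epicardial-like and 30.6 ± 6.15 in fibroblast-like cells, and each class was higher in 3 of 6 libraries.

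Endothelial-like cells were divided into 10 groups, of which 6 had names from fixed markers, and 4 are called here by their leading gene: the Rbp7 group (also Esm1 and Hey1), the Btnl9 group (also Mcf2l and Kdr), the Lars2 group (also Syne1 and Aplnr) and the Rasa4 group (also Cysltr1 and AU021092). The 37 genes were left out of the variable genes used for clustering. Timp4 was still among the 10 leading genes of the larger capillary-like cluster, and levels by subtype are a description only. Capillary-like cells numbered 2176, arterial-like 584, venous-like 467 and endocardial-like 129, and the last had at least 20 cells in 4 libraries. The 10 leading genes of the venous-like cluster held 3 venous markers (Vwf, Lrg1 and Vcam1) and 2 lymphatic ones (Ccl21a and Nts). At the coarser Leiden resolution of 0.6, the cluster of 129 endocardial-like cells was instead named lymphatic endothelial-like by the same rule. The Lars2 group had a median of only 1790 UMIs per cell, against 9693 in endocardial-like cells. Of its 10 leading genes, 0 were endothelial or subtype markers. At Leiden resolution 1.5 a Lars2-led cluster of 474 cells stayed unnamed, with a median of 910 UMIs and Adamts9 among its leading genes.

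**Figure D2:**
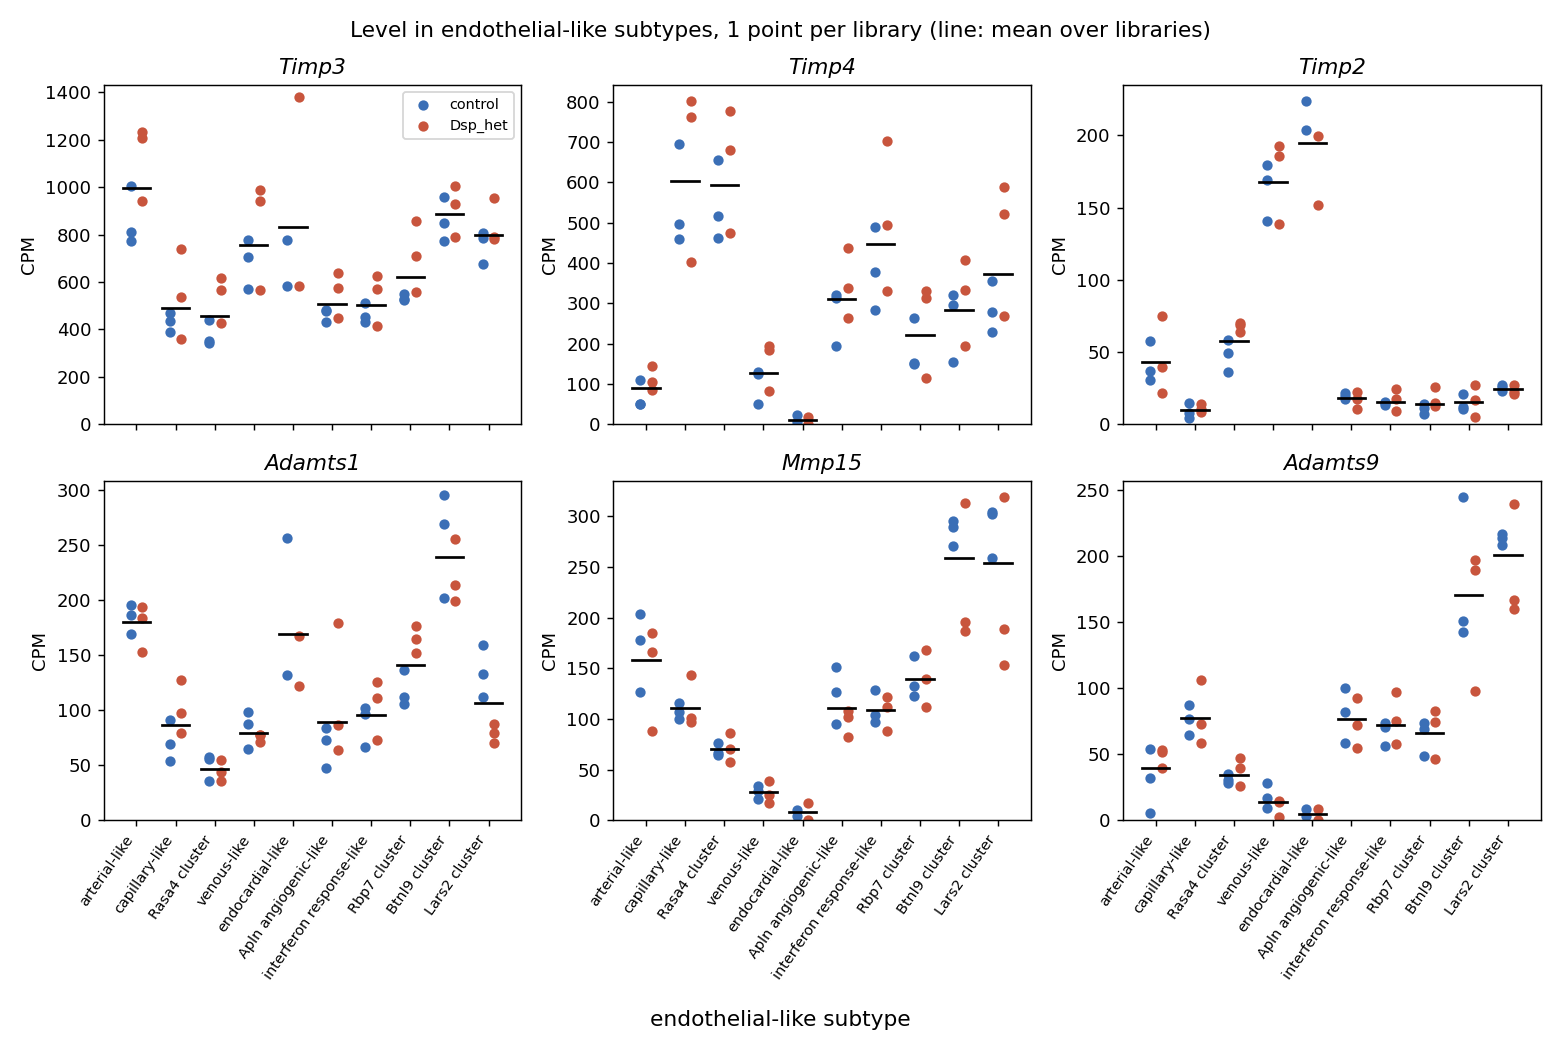
Level in CPM (vertical axis) of 6 genes in 10 endothelial-like subtypes (horizontal axis), with 1 point per library, control in blue and Dsp_het in red, and a line at the mean. Timp4 is high in capillary-like cells and the Rasa4 group and low in arterial-like, venous-like and endocardial-like cells, and Timp2 has its highest means in endocardial-like and venous-like cells.

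Of the inhibitors, Timp4, Timp2 and Timp3 had their highest means in different subtypes. Timp4 was at 603 ± 171 CPM in capillary-like cells and 595 ± 128 in the Rasa4 group, which could not be ordered (each higher in 3 of 6 libraries). It was at 127 CPM in venous-like, 90.3 CPM in arterial-like and 11.1 CPM in endocardial-like cells, and capillary-like libraries overlapped none of these 3. Timp4 levels in arterial-like cells were 48.9, 49.3 and 109 CPM in control and 84.4, 105 and 145 CPM in Dsp_het libraries, against 459, 498 and 696 and then 403, 762 and 802 CPM in capillary-like cells of the same libraries. Timp4 was a leading gene of the larger capillary-like cluster only. The smaller, led by Hba-a2, Hba-a1 and Hbb-bs, held 263 of 353 capillary-like cells in control library 1. It held 307 of 381 in Dsp_het library 1, and the lesser part in all other libraries. The part of this mix in the Timp4 levels was not tested.

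Timp2 was at 195 ± 30.6 CPM (n = 4) in endocardial-like and 168 ± 23.3 (n = 6) in venous-like cells, against 9.88 CPM in capillary-like cells. The Rasa4 group, whose leading genes include the venous factor Nr2f2, had 57.7 CPM of Timp2 and the arterial-like cells 43.3 CPM. Libraries of the endocardial-like and venous-like groups overlapped no library of the other 8 groups. Timp3 was highest in arterial-like cells at 995 ± 194 CPM, in which it lay above capillary-like cells (488 CPM) in 6 of 6 libraries with no overlap. The next Timp3 level, 885 CPM in the Btnl9 group, did not differ from the arterial-like one beyond its spread.

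Of the proteases, Adamts1 was highest in the Btnl9 group at 239 ± 39.7 CPM, above arterial-like cells at 180 ± 16.4 in 6 of 6 libraries, and lowest in the Rasa4 group at 47.0 CPM. Mmp15 was at 259 ± 54.0 CPM in the Btnl9 group and 254 ± 68.6 in the Lars2 group, and at 27.7 CPM in venous-like and 7.79 CPM in endocardial-like cells. Adamts9 was also lowest in those last 2 subtypes, with 14.2 CPM in venous-like and 5.14 CPM in endocardial-like cells, and was at 201 ± 30.9 CPM in the Lars2 group and 170 CPM in the Btnl9 group. Mmp17, a membrane-type enzyme held by a lipid anchor, was at 10.1 ± 3.69 CPM in the Btnl9 group and at most 3.88 CPM in the others. Adamts5, low in endothelial-like cells as a class, was at 66.6 ± 19.7 CPM in the Btnl9 group and 7.11 CPM in the Rasa4 group. Adamts10 was at 54.1 ± 5.57 CPM in the Lars2 group and 47.5 ± 14.5 in venous-like cells, which overlapped.

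Of the genes rare in endothelial-like cells, Adamtsl1 and Timp1 each had a subtype whose libraries overlapped no library of another subtype. Adamtsl1 was at 39.0 ± 28.0 CPM in venous-like cells and at most 3.12 CPM in the other 9 groups. Its venous-like libraries were at 49.5, 91.3 and 20.2 CPM in control and 20.3, 31.7 and 20.8 CPM in Dsp_het, each above every library of the other groups. The epicardial marker Upk3b was at 2.98 CPM in these venous-like cells, beside 2120 CPM in epicardial-like cells, the class with the highest Adamtsl1.
In endocardial-like cells Timp1 was at 8.85 and 9.88 CPM in control libraries 1 and 3. It was at 16.8 and 20.3 CPM in Dsp_het libraries 1 and 3, against at most 7.02 CPM in any library of any other endothelial-like group. Timp1 had fewer than 20 UMIs in endocardial-like cells, so its separation there rests on few molecules. Mmp2 was at 21.3 ± 8.16 CPM, Mmp14 at 17.3 CPM and Adamtsl4 at 14.2 CPM there, each a higher mean than in the other 9 groups. Mmp14 was above its venous-like level of 10.8 CPM in only 2 of 4 libraries, and all 14 Mmp genes together had 50 UMIs in endocardial-like cells. The 5 Adamtsl genes, Adamtsl4 among them, together had 23 UMIs there. Endocardial-like cells also held 2759 CPM of Dcn but only 7.44 CPM of Col1a1, beside 22690 and 1526 CPM in fibroblast-like cells.

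The genotype comparison asks how these genes differ when 1 Dsp allele can be deleted in the Wt1 lineage. Over all kept cells of a library, 25 of 31 tested genes were on the higher side in Dsp_het and 6 on the lower side, and none passed an adjusted p of 0.05 in edgeR's quasi-likelihood test with Benjamini-Hochberg adjustment over 12963 genes (6 genes were too low to test). The lowest adjusted p of the 31 was 0.141, for Mmp3, and the share of all genes called was 0% in each direction. At an unadjusted p under 0.05, 16 genes were higher and 2 lower, against 12.6% of all genes in either direction. The libraries did not overlap for 14 of the 31 on the higher side, where 10.5% of all genes did so, and for 2 on the lower side, where 7.44% did so. The median log2 fold change was 0.82 over the 31 genes and -0.01 over all genes.

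Mmp3 was at 3.89, 7.84 and 5.27 normalized CPM (CPM after edgeR's scaling of library sizes) in control and 37.0, 34.5 and 15.7 in Dsp_het libraries, a log2 fold change of 2.39 (SE 0.38). Every Dsp_het library lay above every control library. Timp2 was at 259, 280 and 301 in control and 697, 408 and 670 normalized CPM in Dsp_het libraries (log2 fold change 1.08, SE 0.21, adjusted p = 0.145), and Adamtsl5 at 4.93, 5.66 and 6.31 against 13.9, 9.94 and 10.7 (1.03, SE 0.20, adjusted p = 0.145). These 3 genes had the smallest p on the higher side. On the lower side they were Mmp15, at 111, 110 and 89.2 against 66.6, 75.1 and 67.8 (log2 fold change -0.56, SE 0.12, adjusted p = 0.163), Adamts9 at -0.38 (SE 0.16) and Mmp17 at -0.37 (SE 0.24).

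Of the 12 genes with the most UMIs, log2 fold changes over all kept cells were 1.37 for Mmp23, 1.04 for Adamts2, 0.90 for Adamts5, 0.86 for Mmp2, 0.82 for Mmp14, 0.32 for Timp3, 0.27 for Adamts10, 0.07 for Adamts1 and -0.01 for Timp4. DESeq2 on the same sums called 11 of the 31 genes, 10 higher (Mmp3, Timp2, Mmp23, Timp1, Adamtsl1, Adamtsl5, Adamts2, Adamtsl4, Adamts5 and Mmp2) and Mmp15 lower, among 379 of all 12963 genes.

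The make-up of the libraries moved with these values. Fibroblast-like cells held 9.75%, 9.60% and 9.38% of the kept UMIs in control and 33.5%, 11.3% and 12.7% in Dsp_het libraries, epicardial-like cells 3.19%, 4.98% and 6.76% against 14.2%, 9.30% and 17.8%, and endothelial-like cells 78.2%, 72.9% and 68.5% against 50.8%, 72.4% and 54.1%. All 14 genes with separated higher libraries had their highest class mean in fibroblast-like or epicardial-like cells. All 23 tested genes of those 2 classes were on the higher side, with a median log2 fold change of 1.03, and of the 8 tested genes with another highest class 2 were. All 15 fibroblast markers and all 16 epicardial markers were on the higher side too, with medians of 1.06 and 1.48. In bulk sums, more cells of a class and more RNA per cell cannot be told apart, so the values within each class are given next.

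**Figure D3:**
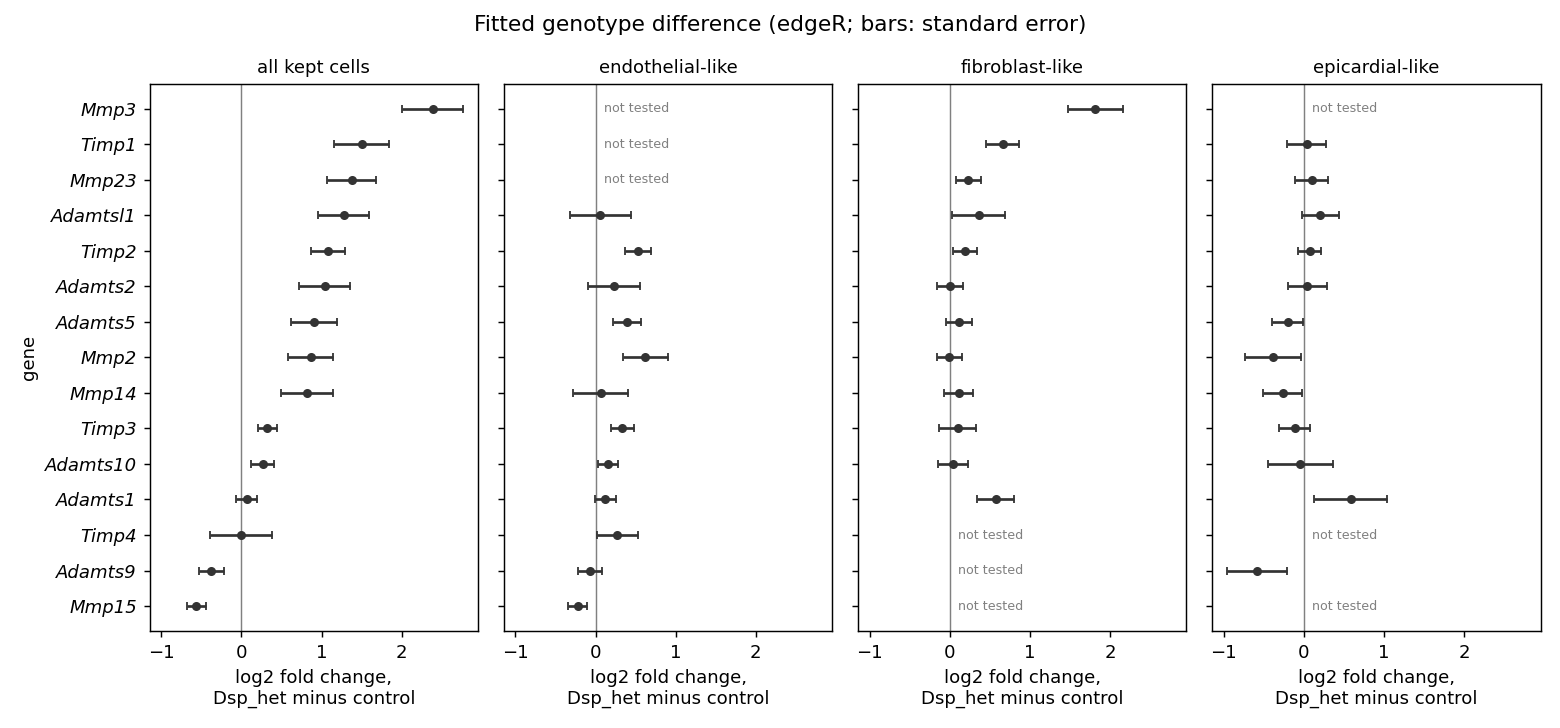
Fitted log2 fold change, Dsp_het minus control, with its standard error (bars), for 15 genes over all kept cells and within 3 classes. The 9 genes from Mmp3 to Mmp14 lie between 0.82 and 2.39 over all kept cells, and within fibroblast-like cells all but Mmp3 and Timp1 lie between -0.0026 and 0.36.

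Within fibroblast-like cells, 22 of the 37 genes could be tested, and none passed in edgeR's test or in DESeq2. Of all 8375 genes 1 was called higher (0.0119%) and 0 lower: Cilp, a matrix protein named here after its value was seen (1.71, SE 0.19, adjusted p = 0.00350). The libraries did not overlap for 2 of the 22 on the higher side, where 4.16% of all genes did so, and for none on the lower side, where 3.79% did so. At an unadjusted p under 0.05, 3 were higher, against 3.07% of all genes in either direction. The 2 separated genes were Mmp3 and Timp1. The median log2 fold change of the 22 was 0.17, against 0.0019 over all genes.

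Mmp3 in fibroblast-like cells was at 41.0, 57.3 and 51.7 normalized CPM in control and 110, 307 and 120 in Dsp_het libraries. The lowest Dsp_het library was thus above the highest control library, and Dsp_het library 2 was well above the other 2. The log2 fold change was 1.81 (SE 0.35), the unadjusted p of the fit 0.000125, the second smallest of 8375 genes, and the adjusted p 0.462. Without Dsp_het library 2 it was 1.21, and without Dsp_het library 1 it was 2.09 with an adjusted p of 0.0253.

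Mmp3 RNA lay in few cells: 119 of 1204 fibroblast-like cells (9.88%, 95% exact interval 8.26% to 11.7%) held a UMI, against 9 of 9728 endothelial-like cells (0.0925%), with median depths of 7560.5 and 3784.5 UMIs. After thinning each cell to 5000 UMIs, which left out 10 to 99 shallower cells per library, the share was 4.90%, 7.04% and 7.69% in control and 9.02%, 8% and 12.7% in Dsp_het libraries (unthinned 5.98%, 6.32% and 8.43% against 10.2%, 10.3% and 18.9%). Single cells carried much of the total: the highest cell of Dsp_het library 2 had 111 of 301 UMIs and that of Dsp_het library 3 had 75 of 133. Without the highest cell of each library, Mmp3 was at 27.45, 36.9 and 30.9 CPM in control and 93.9, 197 and 53.3 CPM in Dsp_het libraries, still without overlap. A fibroblast-like cluster led by Ccl11 and Igfbp3 had 57 of its 68 cells in Dsp_het library 1, and without it Mmp3 was at 110.5 CPM there.

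Timp1 in fibroblast-like cells was at 54.0, 31.9 and 56.0 normalized CPM in control and 76.8, 89.6 and 66.6 in Dsp_het libraries (log2 fold change 0.66, SE 0.21, adjusted p = 1.00). The groups did not overlap. Without the highest cell of each library the values were 51.0, 26.4 and 45.8 against 57.3, 51.8 and 59.1 CPM, a gap smaller than the spread within either group. The share of cells with a Timp1 UMI, thinned to 5000 UMIs, overlapped, with 20.6%, 14.1% and 19.2% against 14.6%, 16% and 17.7%. Adamts1 was at 94.9, 47.8 and 57.4 against 104, 78.4 and 118 normalized CPM (0.58, SE 0.23), which overlapped. On the lower side only Adamts12 (-0.07, SE 0.23) and Mmp2 (-0.0026, SE 0.16) were found, and the other 17 tested genes lay between 0.01 and 0.45. Of 19 immediate early and dissociation genes tested in this class, 16 were on the higher side, with a median of 0.44, and none passed. Their part in the Mmp3 and Timp1 values was not tested.

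**Figure D4:**
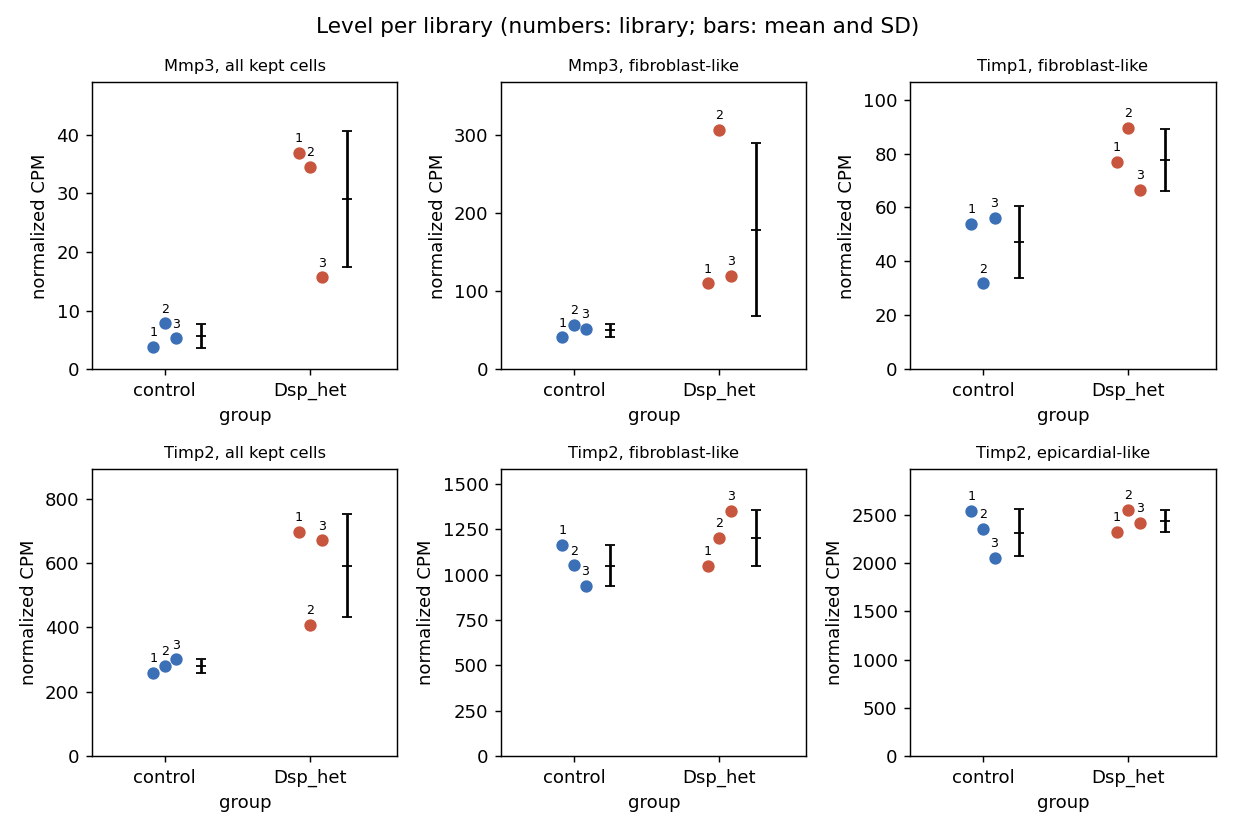
Normalized CPM (vertical axis) per library for Mmp3, Timp1 and Timp2, with points numbered by library and bars for mean and SD. Mmp3 and Timp1 in fibroblast-like cells show no overlap between groups, and Timp2 shows none over all kept cells (259 to 301 against 408 to 697) but overlaps within fibroblast-like and epicardial-like cells.

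In epicardial-like cells 16 genes could be tested, 8 on each side of 0, with a median log2 fold change of -0.0036, against 0.0013 over all genes. None passed in edgeR's test or in DESeq2, and 0 of 8236 genes were called. None had an unadjusted p under 0.05 (3.22% of all genes did), and none was separated (4.2% of all genes on the higher side and 4.08% on the lower side). Timp2, at 2541, 2356 and 2056 normalized CPM in control and 2326, 2556 and 2419 in Dsp_het libraries, had a log2 fold change of 0.07 (SE 0.15). The smallest p on the higher side belonged to Adamtsl4 (0.62, SE 0.47), Adamts1 (0.58, SE 0.46) and Adamtsl1 (0.21, SE 0.23), and on the lower side to Adamts9 (-0.58, SE 0.37), Mmp2 (-0.39, SE 0.34) and Mmp14 (-0.27, SE 0.24).

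In endothelial-like cells none of 18 tested genes passed in edgeR's test or in DESeq2 (edgeR called 0 of 11305 genes), and 4 had an unadjusted p under 0.05, against 4.44% of all genes. On the higher side lay 15 of the 18, with a median log2 fold change of 0.23, against 0.0019 over all genes. Timp2 and Mmp2 were separated on the higher side (4.45% of all genes) and Mmp17 on the lower side (3.89%). In the same sums all 8 tested epicardial markers were on the higher side (median log2 fold change 0.68, summed level 41.4 to 43.3 normalized CPM in control and 47.4 to 64.0 in Dsp_het), as were 11 of 13 fibroblast markers (median 0.43, summed level 425 to 525 against 311 to 716). Their part in the Timp2 and Mmp2 values was not tested. Timp2 was at 36.9, 30.9 and 33.0 normalized CPM in control and 43.7, 40.2 and 63.2 in Dsp_het libraries (log2 fold change 0.53, SE 0.16, adjusted p = 0.770). Venous-like and endocardial-like cells, the subtypes with the most Timp2, made up 10.2%, 5.29% and 7.17% of endothelial-like UMIs in control and 15.2%, 7.14% and 20.55% in Dsp_het libraries. Within venous-like cells Timp2 was at 169, 140 and 180 CPM in control and 139, 193 and 186 CPM in Dsp_het, and within capillary-like cells at 4.13, 7.59 and 14.5 against 8.12, 14.2 and 10.8 CPM, so the groups overlapped in both. In the Rasa4 group, singled out after its values were seen, Timp2 did not overlap, with 49.5, 58.2 and 35.8 against 64.0, 70.2 and 68.6 CPM. The share of all genes separated in that group was not counted, so no conclusion is drawn from a group picked in this way. The other smallest p were those of Timp3 (0.33, SE 0.15) and Adamts5 (0.40, SE 0.17) on the higher side, and of Mmp15 (-0.22, SE 0.12), Mmp17 (-0.44, SE 0.28) and Adamts9 (-0.07, SE 0.14) on the lower side. Timp4 had a log2 fold change of 0.27 (SE 0.26), with 299, 277 and 462 against 260, 575 and 418 normalized CPM.

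In macrophage-like cells 7 genes could be tested, with 3 control libraries and Dsp_het libraries 2 and 3, since Dsp_het library 1 had 2 such cells. None passed in edgeR's test or in DESeq2 (edgeR called 0 of 5949 genes), and 1, Timp3, had an unadjusted p under 0.05, as did 6.14% of all genes. On the higher side lay 4 of the 7, with a median log2 fold change of 0.53, against 0.0013 over all genes. Timp3 alone was separated, on the higher side, as were 11.1% of all genes (12.8% on the lower side). Timp3 was at 14.2, 0 and 54.3 against 106 and 79.7 normalized CPM (log2 fold change 1.69, SE 0.61, adjusted p = 0.739). All 14 endothelial markers were on the higher side in the same cells, and their summed level ranged from 486 to 3594 normalized CPM in control and from 2982 to 5704 in Dsp_het. Their part in the Timp3 value was not tested. Mmp13 had a log2 fold change of 0.68 (SE 0.36), Mmp9 1.02 (SE 0.86), Mmp12 -1.85 (SE 1.02), Timp2 -0.20 (SE 0.16) and Timp4 -0.14 (SE 1.10).

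A fit of the 3 largest classes together tested whether the genotype difference of a gene differed between classes, and no gene of the families passed. Of 11142 genes, 0 passed for 2 of the contrasts and 1 for epicardial-like minus endothelial-like (0.00898%), the antigen-presentation gene Cd74, named after its value was seen. The lowest adjusted p of the families was 0.835, for Timp4 in that contrast (-2.28, SE 0.70). For Mmp3 the difference between fibroblast-like and epicardial-like cells was 3.73 (SE 1.14, unadjusted p of the fit 0.00413, adjusted p = 1.00). The epicardial-like Mmp3 sums held 28 UMIs in all, 16 of them in the 1 cell of control library 2. For fibroblast-like minus endothelial-like cells the Mmp3 difference was 0.04 (SE 0.23, unadjusted p of the fit 0.866). The endothelial-like Mmp3 sums held only 9 UMIs, so neither contrast shows whether the Mmp3 difference is particular to fibroblast-like cells.

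Other genes of the pathway were counted from 5 lists: activators and plasminogen proteins, other inhibitors and receptors, ADAM proteases, further ADAMTS-like proteins and matrix substrates. Within fibroblast-like cells 9, 10, 7, 0 and 21 of these could be tested, within epicardial-like cells 9, 9, 5, 1 and 19, and within endothelial-like cells 10, 12, 8, 1 and 20, and none passed in either direction. Over all kept cells 11, 13, 9, 2 and 23 were tested and none passed. There the inhibitors and receptors had a median log2 fold change of 0.68, 11 of 13 on the higher side, and the substrates 0.55, 17 of 23. The activators had a median of 0.29, 9 of 11 on the higher side, and the ADAM proteases -0.013, with 4 of 9 higher and 5 lower. Serping1, a serine protease inhibitor, was at 247 ± 40.1 against 601 ± 250 normalized CPM, Lrp1, a receptor that clears proteases, at 104 ± 11.4 against 207 ± 83.9, and Reck, a membrane inhibitor of metalloproteases, at 10.7 ± 0.97 against 21.6 ± 9.95.

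Among the substrates Col4a1, a basement membrane collagen, was at 1139 ± 84.2 in control and 828 ± 65.2 normalized CPM in Dsp_het over all kept cells (-0.46, SE 0.12) and Thbs2, a matricellular protein, at 27.9 ± 2.28 against 66.4 ± 19.7 (1.26, SE 0.21). Of the activators, Pcsk6, a proprotein convertase, was at 35.1 ± 1.66 against 57.7 ± 16.4, and of the ADAM proteases, as a list near 0, Adam33 at 14.9 ± 4.51 against 39.1 ± 9.39. Within fibroblast-like cells the medians of the 3 larger lists were near 0: 0.07 for inhibitors and receptors, -0.02 for substrates and 0.16 for activators. Reck was at 58.6 ± 0.55 in control and 76.9 ± 9.94 normalized CPM in Dsp_het fibroblast-like cells (0.41, SE 0.17, adjusted p = 1.00).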

How the data were processed

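Single-cell libraries of EGFP-positive heart non-myocytes were made on the 10x Genomics Chromium platform, 3 from control and 3 from Dsp_het mice. The authors deposited raw UMI counts for 31055 genes and 18283 barcodes, with a table of counts per barcode whose totals equalled the matrix sums for all 18283 barcodes. The submitters' processing notes name GRCm38 and Seurat. No aligner or counting program is named in those notes or the labels. Barcode suffixes were matched to the sample numbers in the labels.

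Cells needed at least 500 UMIs, 200 genes and at most 20% mitochondrial UMIs (16338 barcodes). Occurrences of a shared barcode outside the library holding at least 0.5 of its UMIs were left out. Scrublet called only 45 of 12669 cells doublets (0.355%), and these were left out. The calls were not checked, so doublets may remain. With scanpy 1.11.5, counts were scaled to 10000 per cell, and 2000 variable genes without the 37 family genes, 30 components, 15 neighbours and Leiden resolution 1.0 gave 20 clusters, named from marker lists. A name needed at least 3 markers. The genes, lists and markers were chosen with earlier results of these data known.

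Counts were summed per library and class (at least 20 cells) and fitted with edgeR 4.0.16 (quasi-likelihood, TMM, minimum count of 10, two-sided, Benjamini-Hochberg over all genes, threshold 0.05). Only genes that passed the count filter were tested. Alternatives were DESeq2 1.42.0, other size factors, no count filter, a replicate block, shared barcodes included, stricter cells, no high doublet scores and each library left out. The fit was tested on simulated data. Genes named are the 12 with the most UMIs, the 3 smallest p per direction and comparison, and up to 5 per class and subtype with the highest ratio of mean CPM to any other (5 CPM added). Pathway genes named were taken from the 3 smallest p of their list, and not all 3 are printed for every list. Log2 fold changes are Dsp_het minus control. The main fit did not pair samples by replicate number. Promoters were searched for letter matches only.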

Additional observations from a re-analysis of the deposited data

How the results depend on the processing

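Among log2 fold changes of named genes, 438 values under alternatives kept direction and side of the threshold, 16 passed it with the same direction and 19 changed sign. Over all kept cells the number of genes called was 0 with edgeR, 11 with DESeq2, 1 without the count filter (Mmp3, among 61 of all 20034 genes) and 0 to 3 with 1 library left out. The 3 came without Dsp_het replicate 2, among 162 of 13382 genes: Timp1 (1.78), Adamts2 (1.33) and Timp2 (1.29). Without the count filter 1 gene each was called in endothelial-like (Timp2, adjusted p = 0.0123), fibroblast-like (Mmp3, 9.42e-17), epicardial-like (Timp4, -2.16, 0.0206) and macrophage-like cells (Timp3, 0.000331). Over all genes these fits called 199 of 17754, 84 of 16174, 37 of 15954 and 100 of 13855 in the 4 classes. The interaction without that filter gave 2 calls for these families over its contrasts. Its calls over all genes were not counted, so the 2 cannot be set against them. In fibroblast-like cells leaving out 1 library gave 0 to 1 (Mmp3, without Dsp_het replicate 1, among 2 of 8658 genes), and the replicate block gave 1 (Mmp3, 1.67, adjusted p = 0.000906, among 14 of 8375). Same-numbered libraries correlated at -0.12 to 0.102. With so few libraries in a group, this cannot decide whether the numbers pair them or mark a shared batch. The cause of these differences between settings was not tested.

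The sign changed for these values. Mmp2 in fibroblast-like cells was 0.009139 without the count filter and 0.003948 with shared barcodes included. Timp4 in macrophage-like cells was 0.65 with DESeq2, 0.04589 with shared barcodes and 0.6689 without the highest doublet scores. Across all alternatives, including each library left out, values over all kept cells ran from -0.522 to 0.3032 for Timp4 and from -0.02385 to 0.1489 for Adamts1. They ran from -0.19 to 0.02864 for Adamts9 in endothelial-like cells, from -0.2488 to 0.1024 for Adamts12 and -0.1018 to 0.1252 for Mmp2 in fibroblast-like cells, and from -0.01542 to 0.5157 for Adamtsl1 in epicardial-like cells. In macrophage-like cells they ran from -0.5163 to 1.433 for Mmp9 and from -1.649 to 1.143 for Timp4. The class with the highest mean stayed the same for 36 or 37 of 37 genes under each alternative; Mmp17 and Adamtsl5 changed.

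Pericyte-like cells could not be tested, since 1 Dsp_het library had at least 20 of them, and macrophage-like cells gave no value under the stricter cell filter. Low UMI numbers limit Mmp9, Mmp12 and the genes left out by the count filter.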
